A study of Mus musculus with 4 samples.

Results

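The genes followed here encode enzymes that make asparagine and serine and that move one-carbon units through the folate pathway. They were chosen by gene symbol from a list of *Asns*, *Phgdh*, *Psat1*, *Psph*, *Shmt1*, *Shmt2*, *Mthfd1*, *Mthfd2* and *Mthfd1l*, and all 9 were found among the 11598 genes of the table. The list was drawn up with earlier fold changes of these libraries known, so the fold changes and adjusted p-values below describe these genes and are no independent support for any direction. Ribosome-protected fragments (RPFs), mRNA stretches spared by nuclease because a ribosome covers them, were measured by Ribo-seq after FACS had isolated leptotene/zygotene spermatocytes from mouse testes at 12 dpp. The *Eef1g*-cKO group carries a floxed *Eef1g* allele on a C57BL/6J background that *Stra8*-GFPCre, active in male germ cells from the spermatogonial stage on, deletes in part. The control group is labelled wild type and comes from littermates per the study's methods. Each genotype had 2 libraries. The sources used here do not say how many animals entered a library, so the p-values measure only the spread between these libraries.

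Serine is made from a glycolytic intermediate by the successive action of PHGDH, PSAT1 and PSPH. Serine hydroxymethyltransferase, SHMT1 in the cytosol and SHMT2 in mitochondria, converts serine to glycine and passes a carbon to tetrahydrofolate. MTHFD1 in the cytosol and MTHFD2 and MTHFD1L in mitochondria interconvert the carbon-carrying folates that feed purine, thymidylate and methionine synthesis, whereas ASNS makes asparagine from aspartate and glutamine. In many cell types *Asns* and several of the serine and folate genes are induced by the transcription factor ATF4 when amino acids are short or the endoplasmic reticulum is stressed.

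The control libraries held 2479504 (replicate 1) and 1384282 (replicate 2) reads on genes, whereas the *Eef1g*-cKO libraries held 223906 (replicate 1) and 407979 (replicate 2), so mean depth was 6.11-fold higher in control. Depth and genotype therefore cannot be told apart by design, and most genes have fewer reads and a larger counting error in *Eef1g*-cKO. The targeted gene *Eef1g* was covered by 107 and 58 control reads against 0 and 4 *Eef1g*-cKO reads, or 27.6 and 26.8 against 0 and 6.26 FPKM (reads scaled to a gene of 1 kilobase and to 1000000 reads on genes). Both *Eef1g*-cKO libraries were thus low for the targeted gene, as their labels say.

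*Asns* RPF abundance stood at 25.7 and 41.2 FPKM in the control libraries and at 227 and 178 FPKM in the *Eef1g*-cKO libraries. The 2 groups did not overlap, and the gene moved from the fourth place among the 9 by mean FPKM in control to the first in *Eef1g*-cKO. The mean was 33.5 ± 11 FPKM in control and 203 ± 34.7 in *Eef1g*-cKO (SD, n = 2 each), 6.05-fold higher. The log2 fold change, here and below on the log2(FPKM + 1) scale, was 2.59 (standard error 0.29, limma adjusted p = 0.0225 over 10475 genes averaging 1 FPKM or more). These values rest on 123 and 110 control reads against 98 and 140 *Eef1g*-cKO reads, and the exact 95% Poisson intervals, which cover counting error only, ran from 21.4 to 30.7 and 33.9 to 49.7 FPKM in control and from 184 to 277 and 150 to 210 FPKM in *Eef1g*-cKO.

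*Asns*, on the minus strand of chromosome 6 (7675165 to 7693209), is the member whose RPF abundance was higher in *Eef1g*-cKO beyond the thresholds, and *Shmt1* (chromosome 11, 60788897 to 60811265, minus strand) and *Phgdh* (chromosome 3, 98313171 to 98339969, minus strand) are those with the largest differences the other way. Their promoter windows are shown to set the 2 directions side by side, 250 bases before to 50 bases after the annotated start, 5′ to 3′ on the gene's strand, from RefSeq on GRCm38.p6. The windows lie at chr6:7693160-7693459, chr11:60811216-60811515 and chr3:98339920-98340219. Capitals mark matches on either strand to TGATGNAAN, the letters of the C/EBP-ATF response element that ATF4 can bind, and to the CCAAT box.
Asns: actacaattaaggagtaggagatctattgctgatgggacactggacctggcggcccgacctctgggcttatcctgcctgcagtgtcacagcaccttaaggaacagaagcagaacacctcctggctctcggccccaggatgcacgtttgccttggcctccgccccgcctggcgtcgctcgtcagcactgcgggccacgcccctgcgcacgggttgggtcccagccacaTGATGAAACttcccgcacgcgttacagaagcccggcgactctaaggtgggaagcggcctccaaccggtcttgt
Shmt1: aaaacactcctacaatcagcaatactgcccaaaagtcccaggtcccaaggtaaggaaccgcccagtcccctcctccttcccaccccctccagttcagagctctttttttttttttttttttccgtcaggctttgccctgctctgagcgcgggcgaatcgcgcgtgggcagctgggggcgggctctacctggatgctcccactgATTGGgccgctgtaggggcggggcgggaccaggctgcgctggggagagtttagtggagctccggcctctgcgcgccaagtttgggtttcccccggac
Phgdh: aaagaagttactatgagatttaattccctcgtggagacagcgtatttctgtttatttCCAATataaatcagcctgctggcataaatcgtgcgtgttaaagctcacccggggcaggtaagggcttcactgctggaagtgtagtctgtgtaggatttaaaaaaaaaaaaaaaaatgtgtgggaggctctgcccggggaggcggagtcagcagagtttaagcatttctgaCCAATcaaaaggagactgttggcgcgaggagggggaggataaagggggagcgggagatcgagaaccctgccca
In *Asns* the match to TGATGNAAN reads TGATGAAAC and begins 23 bases before the start. The capitals in *Shmt1* and *Phgdh* are CCAAT boxes, read as ATTGG in *Shmt1*, where the box lies on the opposite strand.

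All 9 members had a promoter window, with 10 windows in total because *Psat1* has 2. TGATGNAAN was found in the window of *Asns* and in none of the other 8 genes, against 3.95% of all 32851 windows of the same length. Among related genes with a window the same letters occurred in 6 of 22 ATF4 and stress regulators and in 5 of 13 cytosolic aminoacyl-tRNA synthetases. They occurred in 0 of 24 genes of the folate and methionine cycle, 0 of 12 of glycine cleavage, serine use and transsulfuration, 1 of 14 of purine synthesis, 2 of 14 of other amino acid synthesis and 2 of 15 amino acid transporters. The CCAAT box was found in 6 of the 9 genes, *Phgdh*, *Psat1*, *Psph*, *Shmt1*, *Mthfd1* and *Mthfd2*, against 37.4% of all windows. The E-box CACGTG, present in 7.15% of all windows, had no match in the 9 genes. A match describes letters in a window and not a bound site.

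Of the 9 genes, 1 was called increased and 3 decreased by limma, with the adjusted p below 0.05 and a log2 fold change beyond 1 in size. Over all 10475 genes tested, 2.87% were called increased and 4.97% decreased by the same rule. By unadjusted p, 1 member was increased and 4 were decreased, against 7.32% and 16.3% of all genes. edgeR's quasi-likelihood test on the recovered reads, which kept 8 of the 9 genes, called 1 increased and 3 decreased by adjusted p, where 8.75% and 11.2% of 8056 genes were called. As the list was made with this contrast known, nothing is read from these counts. Limma's adjusted calls ended when either control library was left out, with 0 of the 9 and 0 of all genes called without control replicate 1 and likewise without control replicate 2. The lone control library is then assumed to vary like the *Eef1g*-cKO pair. By unadjusted p limma still called 1 of the 9 increased in both cases and 5 and 2 decreased, beside 548 increased and 1013 decreased genes without control replicate 1 and 479 and 795 without control replicate 2. With the reads thinned to equal depth, or with an untrended prior variance, limma's adjusted p also called 0 genes, while by unadjusted p 1 of the 9 was increased under both settings and 3 and 4 were decreased, beside 723 increased and 1313 decreased of 10385 genes with thinned reads and 793 and 1811 of 10475 with the untrended prior. The log2 fold changes stayed about as large with thinned reads, at 2.80 for *Asns*, −2.10 for *Shmt1* and −3.36 for *Phgdh*, with *Psph* weaker at −0.75, and the untrended prior leaves them as they were.

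The median log2 fold change of the 9 was −1.0, against −0.23 over all genes tested, and 7 of the 9 lay below that median of all genes. With the libraries centred on their medians the median of all genes was −0.02, that of the 9 was −0.79, and 1 member was called decreased by limma's adjusted p in place of 3. The calls lost were those of *Psph*, at −1.09, and of *Phgdh*, whose log2 fold change of −2.62 stayed about as large while its limma adjusted p went from 0.0498 to 0.0546. Over all genes the same centring raised the share of increases among the adjusted calls from 36.6% to 57.6%. In 1 of the 9 genes each *Eef1g*-cKO value exceeded each control value, and in 6 each was below, where 24.6% and 37.7% of all genes tested did so.

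**Figure D1:**
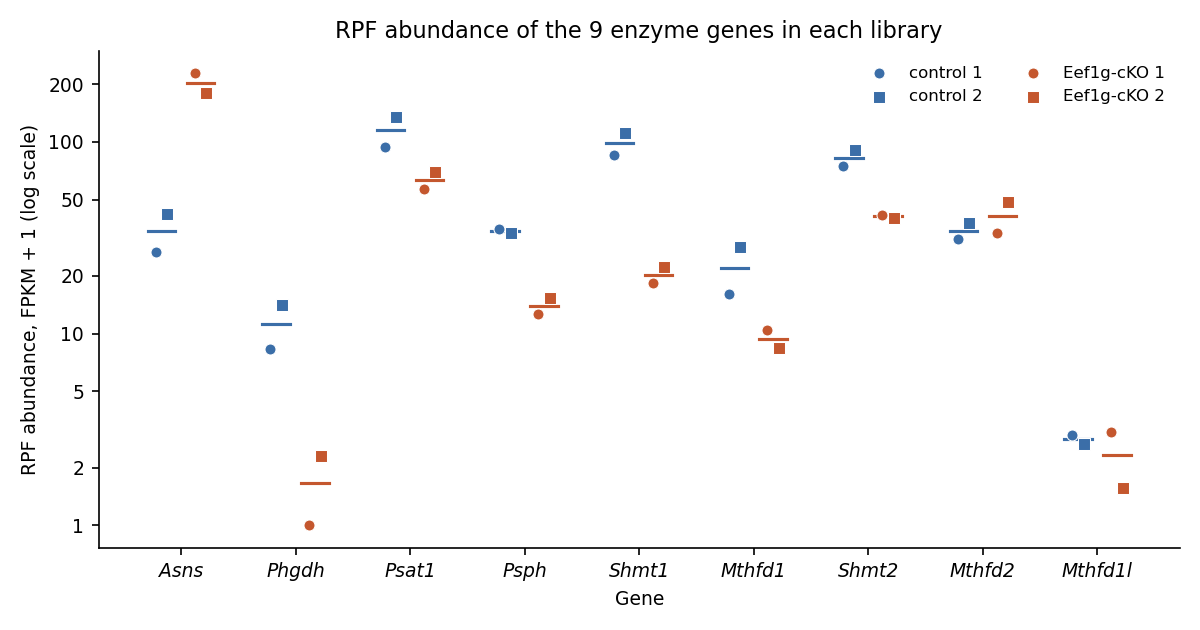
RPF abundance of the 9 genes in each library, as FPKM + 1 on a log axis, with a point per library (circles for replicate 1, squares for replicate 2) and a bar at the mean of the 2 libraries of a genotype. *Asns* stands at 178 and 227 FPKM in *Eef1g*-cKO, above its control values of 25.7 and 41.2, while *Mthfd2* and *Mthfd1l* overlap between genotypes.

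**Figure D2:**
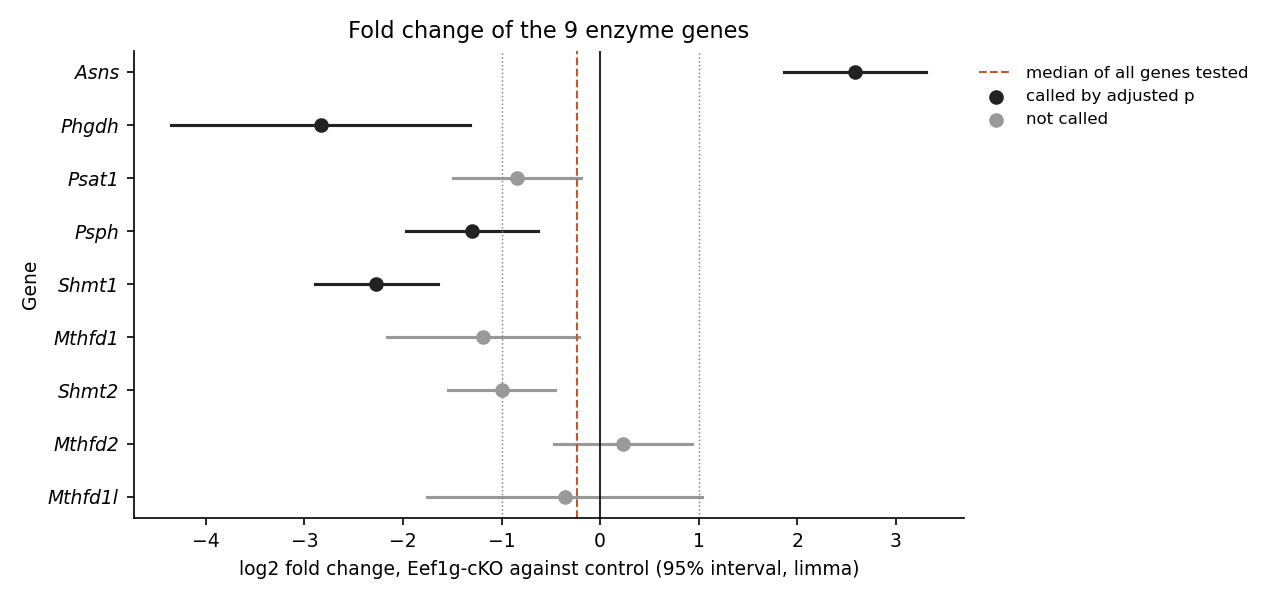
Log2 fold change of each gene in *Eef1g*-cKO against control from limma on log2(FPKM + 1), with its 95% interval; black marks genes called by adjusted p and an absolute log2 fold change above 1 (dotted lines), grey the others. *Asns* lies at 2.59 and *Phgdh*, *Shmt1* and *Psph* at −2.84, −2.27 and −1.30, beside a median of −0.23 over all genes tested (dashed line).

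Among the serine synthesis genes, *Phgdh*, whose product catalyses the first step, had 7.33 and 13.1 FPKM in control and 0 and 1.31 FPKM in *Eef1g*-cKO. It was low in both *Eef1g*-cKO libraries, with 0 reads and 1 read against 34 reads in each control library. With so few reads the ratio of pooled reads per 1000000 was 0.0899 of the control value, with an exact 95% counting interval from 0.00224 to 0.518. The exact 95% Poisson intervals reached up to 8.81 and 7.30 FPKM in *Eef1g*-cKO and ran from 5.08 to 10.2 FPKM in control replicate 1, so by counting error neither *Eef1g*-cKO library alone was clearly below that control library. The log2 fold change was −2.84 ± 0.62 (± the standard error, adjusted p = 0.0498 by limma), at the edge of the threshold, and edgeR gave an adjusted p of 0.0295 on the reads.

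*Psat1*, which encodes the aminotransferase of the second step, was the most abundant of the 9 in control, at 93.3 and 135 FPKM, and had 55.6 and 68.9 FPKM in *Eef1g*-cKO. The *Eef1g*-cKO libraries were lower without overlap, but the log2 fold change of −0.85 ± 0.26 (± the standard error, adjusted p = 0.0983 by limma) passed neither threshold; in edgeR the adjusted p of 0.0317 passed and the log2 fold change of −0.76 did not. *Psph*, which encodes the phosphatase of the last step, had 34.1 and 32.4 FPKM in control and 11.6 and 14.4 FPKM in *Eef1g*-cKO, the latter from 4 and 9 reads. It was called decreased, with a log2 fold change of −1.30 ± 0.27 (± the standard error, adjusted p = 0.0479 by limma), and was not called by edgeR (adjusted p = 0.0567). Its call ended in 10 of 14 alternative settings, among them limma without a filter on low values (adjusted p = 0.0548), and that of *Phgdh* ended in 9. The size of the *Phgdh* change depended on the pseudocount, with a log2 fold change of −4.72 at 0.1 and −1.41 at 5 FPKM. The 3 serine synthesis genes together took 298 and 410 reads per 1000000 in the control libraries against 156 and 196 in those of *Eef1g*-cKO. Most of these came from *Psat1*, which was not called, with 232 and 335 against 138 and 172.

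*Shmt1* had 85.0 and 110 FPKM in control and 17.3 and 21.4 FPKM in *Eef1g*-cKO. The 2 *Eef1g*-cKO libraries agreed closely and lay far below both control libraries, from 8 and 18 reads with 95% Poisson intervals of 7.47 to 34.1 and 12.7 to 33.8 FPKM. The mean fell 5.04-fold, from 97.4 ± 17.6 to 19.3 ± 2.87 FPKM (SD, n = 2 each), with a log2 fold change of −2.27 ± 0.25 (± the standard error, adjusted p = 0.0225 by limma; edgeR adjusted p = 5.58e-05). *Shmt1* and *Asns* were also called with centred libraries, where their log2 fold changes were −2.06 and 2.80, and by DESeq2. Of the 14 alternative settings, 4 ended the adjusted call of *Shmt1* and 5 that of *Asns*, through the adjusted p and with the direction kept.

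*Mthfd1*, the cytosolic enzyme with 3 folate activities, had 15.0 and 27.2 FPKM in control and 9.41 and 7.37 FPKM in *Eef1g*-cKO. The groups did not overlap, but in FPKM control replicate 1 lay closer to both *Eef1g*-cKO libraries than to control replicate 2. The log2 fold change of −1.19 (standard error 0.39) did not pass in limma (adjusted p = 0.111) but did in edgeR (adjusted p = 0.0447). The cytosolic pair *Shmt1* and *Mthfd1* together took 225 and 317 reads per 1000000 in the control libraries against 67.0 and 68.6 in those of *Eef1g*-cKO, a mean 4.00-fold lower.

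Of the mitochondrial enzymes, *Shmt2* had 73.5 and 89.3 FPKM in control and 40.7 and 39.3 FPKM in *Eef1g*-cKO. Both *Eef1g*-cKO libraries were lower, and the log2 fold change of −1.0 ± 0.22 (± the standard error, adjusted p = 0.0516 by limma) came just short of both thresholds. Its adjusted p was below 0.05 in edgeR (0.0135) and, in limma, with a pseudocount of 5 (0.0432), a minimum mean of 5 FPKM (0.040) and the replicate block (0.0484), in each case without a call by fold change. *Mthfd2* had 30.0 and 36.6 FPKM in control and 32.4 and 47.4 FPKM in *Eef1g*-cKO. The libraries of the 2 genotypes overlapped, and the 95% interval of its log2 fold change of 0.23 ran from −0.47 to 0.94, so a change of the size seen for *Shmt1* or *Asns* lay outside it. Without *Eef1g*-cKO replicate 2 the value was −0.03. *Mthfd1l* was the least abundant in control, at 1.96 and 1.67 FPKM, and had 2.06 and 0.566 FPKM in *Eef1g*-cKO from 2 reads and 1 read, so that a difference was not detectable at this depth (log2 fold change −0.36, 95% interval −1.75 to 1.04). The mitochondrial genes together took 240 and 289 reads per 1000000 in the control libraries against 170 and 191 in those of *Eef1g*-cKO. The lower sum came mainly from *Shmt2*, with 169 and 206 against 93.8 and 90.7. *Mthfd2* had 62.1 and 75.9 against 67.0 and 98.0.

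The balance between compartments was compared within each library, where the ratio of 2 genes' FPKM does not depend on scaling between libraries. *Shmt2* over *Shmt1* was 0.865 and 0.813 in the control libraries against 2.35 and 1.84 in those of *Eef1g*-cKO. The mitochondrial gene was thus below the cytosolic one in both control libraries and above it in both *Eef1g*-cKO libraries, although the exact 95% counting intervals in *Eef1g*-cKO, 1.00 to 6.14 and 1.02 to 3.44, reached down to nearly equal levels. *Mthfd2* over *Mthfd1* was 1.99 and 1.35 in the control libraries against 3.44 and 6.42 in those of *Eef1g*-cKO, where the 95% intervals ran from 1.32 to 9.98, which holds both control values, and from 3.16 to 14.4. *Asns* over *Psat1* was 0.276 and 0.306 in the control libraries against 4.09 and 2.59 in those of *Eef1g*-cKO, with 95% intervals from 0.225 to 0.378 over both control libraries and from 1.93 to 6.33 over both *Eef1g*-cKO libraries. *Shmt2* over *Mthfd2*, both mitochondrial, was 2.45 and 2.44 in the control libraries against 1.26 and 0.831 in those of *Eef1g*-cKO. The 95% intervals in *Eef1g*-cKO ran from 0.618 to 2.62, which holds both control values, and from 0.517 to 1.33. The ratio values thus also differed between genotypes for 2 genes of the same compartment. Such ratios show unequal change between 2 genes and not which of them moved.

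In control the order by mean FPKM was *Psat1*, *Shmt1*, *Shmt2*, *Asns*, *Mthfd2*, *Psph*, *Mthfd1*, *Phgdh* and *Mthfd1l*. *Psat1* overlapped with *Shmt1*, *Shmt1* with *Shmt2*, *Asns* with *Mthfd2* and *Mthfd2* with *Psph*, and the other neighbours did not. In *Eef1g*-cKO the order was *Asns*, *Psat1*, *Shmt2*, *Mthfd2*, *Shmt1*, *Psph*, *Mthfd1*, *Mthfd1l* and *Phgdh*, where *Shmt2* overlapped with *Mthfd2* and *Mthfd1l* with *Phgdh*. All 9 genes together took 813 and 1095 reads per 1000000 in the control libraries against 831 and 799 in those of *Eef1g*-cKO, and without *Asns* 764 and 1016 against 393 and 456. *Asns* alone took 49.6 and 79.5 reads per 1000000 in the control libraries against 438 and 343 in those of *Eef1g*-cKO, so the sum over all 9 overlapped between genotypes while its make-up differed.

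Cell type markers moved with genotype. The 18 leptotene and zygotene markers took 5818 and 4686 reads per 1000000 in the control libraries against 11398 and 11255 in those of *Eef1g*-cKO, with 8 called increased and 0 decreased by limma's adjusted p, and all 18 had reads in *Eef1g*-cKO. *Sycp3*, their most abundant gene, had 811 and 716 FPKM in control and 2217 and 1778 FPKM in *Eef1g*-cKO. Of these 18, 16 had a positive log2 fold change and 2 a negative one, *Rec8* (−0.54) and *Mei1* (−0.26), with a median of 0.95. The 18 spermatogonia markers took 3185 and 3860 reads per 1000000 in the control libraries against 1027 and 1025 in those of *Eef1g*-cKO, with 7 of 17 tested called decreased and 0 increased. *Uchl1*, their most abundant gene, had 1011 and 1138 FPKM in control and 140 and 120 FPKM in *Eef1g*-cKO. Of the 17 tested, 16 had a negative log2 fold change and 1, *Rhox13* (0.90), a positive one, with a median of −1.91. *Nanos2*, not tested at a mean of 0.756 FPKM, had 0 reads in both *Eef1g*-cKO libraries. There, 1 read on a gene of 1 kilobase amounts to 4.47 and 2.45 FPKM, so its level could not be compared. The libraries came from FACS-sorted cells, and the study reports comparable shares of leptotene/zygotene spermatocytes in both genotypes after sorting. In bulk libraries fewer cells of a type and less RNA per cell cannot be told apart, and the part of this shift in the lower RPF abundance of *Shmt1*, *Phgdh* and *Psph* or in the higher RPF abundance of *Asns* was not tested.

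Of 15 pachytene and spermatid markers 7 were in the table. They took 501 and 378 reads per 1000000 in the control libraries against 1420 and 1284 in those of *Eef1g*-cKO. Most came from *Hist1h1t*, at 388 and 301 against 1458 and 1354 FPKM. By limma's adjusted p 2 were called increased and 0 decreased, and by unadjusted p 2 and 1. Of the 7, 4 had a positive and 3 a negative log2 fold change, with a median of 0.25. The negative ones were *Prm2* (−2.02, with 0 reads in *Eef1g*-cKO), *Tnp1* (−1.94) and *Piwil1* (−1.46, the decrease by unadjusted p). Sertoli cell markers (11 of 13 in the table) took 1756 and 707 reads per 1000000 in the control libraries against 907 and 730 in those of *Eef1g*-cKO, overlapping between genotypes. By limma's adjusted p 0 were called, by unadjusted p 3 were decreased, and edgeR called 3 of the 8 it kept decreased. Of the 11, 10 had a negative log2 fold change and 7 had both *Eef1g*-cKO libraries below both controls, with a median of −1.44, or −0.87 with the gene at 0 reads in *Eef1g*-cKO, *Gata4*, set to 3 reads per library. Their most abundant gene *Ctsl*, at 274 and 192 against 310 and 271 FPKM, was the 1 with a positive value. Peritubular markers (5 of 7) took 270 and 238 against 84.9 and 100.5 reads per 1000000, with *Col1a1*, named as the 1 gene called, decreased and *Acta2*, the most abundant, at 28.7 and 16.9 against 5.21 and 16.2 FPKM. Leydig cell markers (3 of 7, most abundant *Cyp11a1*) took at most 11.6 reads per 1000000 in any library. *Cyp11a1* and *Hsd3b1* had 0 reads in *Eef1g*-cKO, but *Cyp11a1* also had 0 in control replicate 1, with all 12 of its reads in control replicate 2. *Cd14*, the 1 of 9 macrophage and blood markers in the table, took at most 4.33 reads per 1000000.

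**Figure D3:**
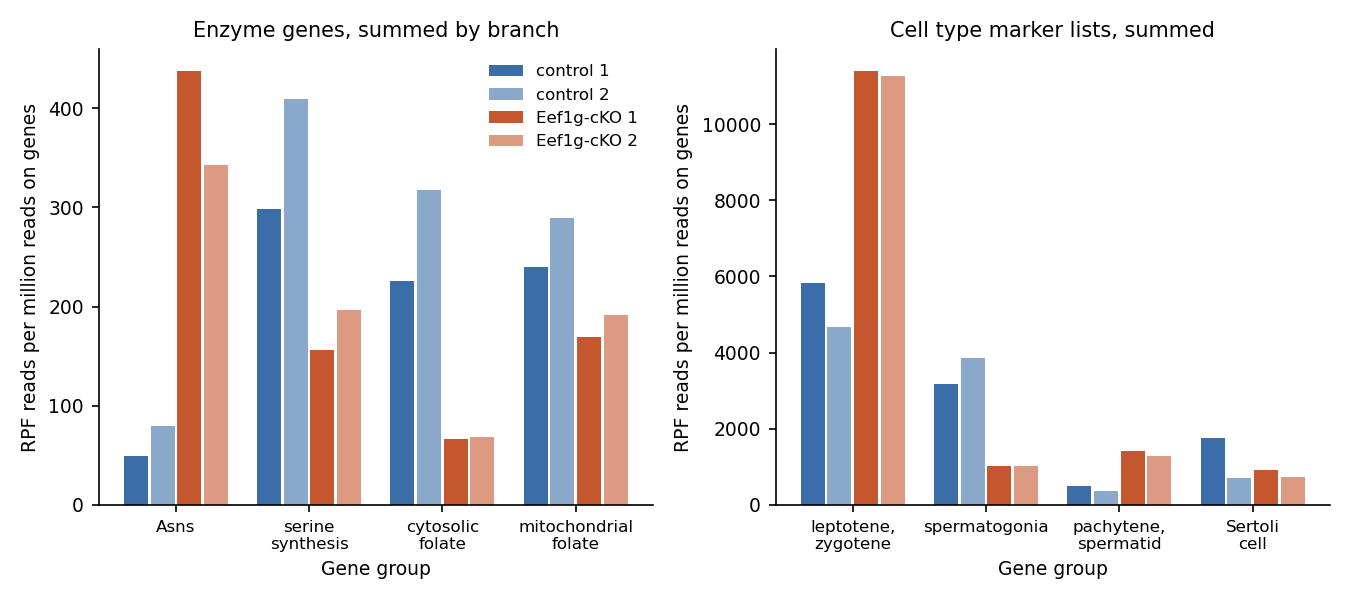
Summed RPF reads per 1000000 reads on genes in each of the 4 libraries, for the enzyme genes by branch (left) and for 4 lists of cell type markers (right). *Asns* and the leptotene/zygotene markers are higher in both *Eef1g*-cKO libraries, and the cytosolic folate genes (67.0 and 68.6) and the spermatogonia markers (1027 and 1025) are lower than in both control libraries.

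The neighbouring pathways were followed as lists. Beside their counts, limma's adjusted p called 2.87% of all genes tested increased and 4.97% decreased. By unadjusted p the shares were 7.32% and 16.3%, and by edgeR 8.75% and 11.2% of the genes it kept. Counts from edgeR below are out of the genes it kept. These were 12 for the folate and methionine cycle, 13 for purine synthesis and 8 for glycine cleavage, serine use and transsulfuration. They were 10 for other amino acid synthesis, 15 for ATF4 and stress regulators, 21 for the synthetases and 12 for the transporters. Of 19 tested genes of the folate and methionine cycle, 0 were called increased and 1 decreased by limma's adjusted p (1 and 5 by unadjusted p, 1 and 2 by edgeR), with a median log2 fold change of −0.68. The gene called was *Mat2b*, which encodes the regulatory subunit of methionine adenosyltransferase, at 31.6 and 34.2 against 13.8 and 9.77 FPKM. Of 15 genes of purine synthesis, 0 were called increased and 1 decreased by limma's adjusted p (0 and 6 by unadjusted p, 0 and 3 by edgeR), with a median of −0.68. That gene was *Atic*, whose product performs the last folate-dependent step of purine synthesis, at 74.0 and 77.2 against 27.4 and 27.2 FPKM (log2 fold change −1.44, standard error 0.21, limma adjusted p = 0.0307). With genes at 0 reads in both *Eef1g*-cKO libraries set to 3 reads per library, the 2 medians were −0.36 and −0.22.

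Of 9 tested genes of glycine cleavage, serine use and transsulfuration, 0 were called increased and 2 decreased by limma's adjusted p (1 and 2 by unadjusted p, 2 and 1 by edgeR), with a median of 0.23. *Gcat*, which encodes a threonine-degrading enzyme that yields glycine, had 38.6 and 54.4 FPKM in control and 7.50 and 1.65 FPKM in *Eef1g*-cKO, a log2 fold change of −3.30 ± 0.59 (± the standard error, adjusted p = 0.0379 by limma). *Gcsh*, the carrier protein of the glycine cleavage system, had 18.1 and 21.1 against 3.34 and 5.50 FPKM, from 1 read and 3 reads in *Eef1g*-cKO, and was not called by edgeR (adjusted p = 0.0523).

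Synthesis of other non-essential amino acids had 0 of 18 tested genes called increased and 2 decreased by limma's adjusted p (0 and 6 by unadjusted p, 0 and 2 by edgeR), with a median of −0.94, or −0.71 with genes at 0 reads set to 3. *Glul*, which encodes glutamine synthetase, had 21.0 and 19.6 FPKM in control and 3.18 and 5.24 FPKM in *Eef1g*-cKO.

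Among 20 tested ATF4 and stress regulators, 1 was called increased and 0 decreased by limma's adjusted p (4 and 2 by unadjusted p, 2 and 1 by edgeR), with a median of 0.34. *Fgf21*, which encodes a stress-induced hormone, had 1.28 and 0 FPKM in control and 28.3 and 23.3 FPKM in *Eef1g*-cKO. The reads were 3 and 0 against 6 and 9, a ratio of pooled reads per 1000000 of 30.6 with an exact 95% counting interval from 8.65 to 165. *Atf4* itself was the most abundant gene of the list, with a log2 fold change of 0.40 that was not called; it was picked out here after its value was seen.

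Cytosolic aminoacyl-tRNA synthetases were called in both directions, 2 of 21 increased and 3 decreased by limma's adjusted p (3 and 3 by unadjusted p, 3 and 3 by edgeR), with a median of −0.12. *Cars* had 27.2 and 36.8 against 87.3 and 85.2 FPKM and *Farsb* 68.8 and 76.5 against 179 and 154 FPKM. *Vars* had 112 and 117 FPKM in control and 27.5 and 23.2 FPKM in *Eef1g*-cKO, a log2 fold change of −2.14 ± 0.22 (± the standard error, adjusted p = 0.0216 by limma). *Hars*, at 68.1 and 97.3 against 31.4 and 37.0 FPKM, and *Rars*, at 142 and 185 against 69.2 and 73.6 FPKM, were also called decreased. The synthetases for asparagine and serine, *Nars* and *Sars*, singled out after their values were seen because they use the products of these pathways, had log2 fold changes of 0.64 and −0.92 and were not called.

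Of 14 tested amino acid transporters, 2 were called increased and 0 decreased by limma's adjusted p (2 and 3 by unadjusted p, 3 and 1 by edgeR), with a median of −0.28, or −0.20 with genes at 0 reads set to 3. *Slc7a3*, a carrier of cationic amino acids, had 1 read and 0 reads in control against 9 and 22 in *Eef1g*-cKO, where it reached 16.6 and 22.3 FPKM. Its ratio of pooled reads per 1000000 was 190, with an exact 95% counting interval from 31.6 to 7726. *Slc1a4*, a carrier of serine and other small neutral amino acids, had 1.13 and 0.920 FPKM in control and 10.2 and 7.49 FPKM in *Eef1g*-cKO, a log2 fold change of 2.27 ± 0.46 (± the standard error, adjusted p = 0.0457 by limma).

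**Figure D4:**
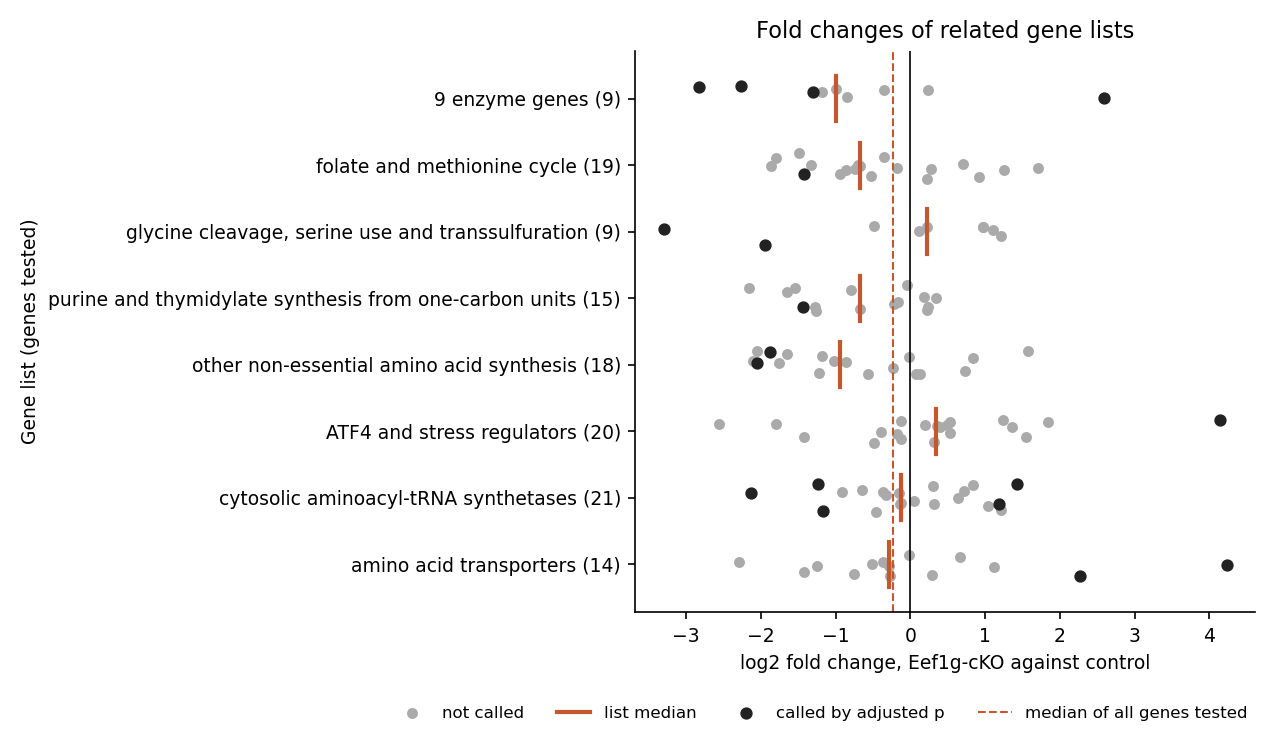
Log2 fold change in *Eef1g*-cKO against control of every tested gene in the 9-gene set and in 7 related lists, with the number of genes tested in brackets; black points were called by adjusted p and an absolute log2 fold change above 1, and red bars are list medians. Medians run from −1.0 for the 9 genes to 0.34 for ATF4 and stress regulators, beside −0.23 for all genes tested (dashed line); vertical jitter has no meaning.

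Genes with a profile most like 3 of the members were found by the Euclidean distance between log2(FPKM + 1) values over the 4 libraries after subtracting each gene's mean, with candidates limited to those averaging 20 FPKM or more. Nearest to *Asns* were *Hist1h2aa* (distance 0.19), *Cnpy3* (0.33) and *Snord104* (0.46). Nearest to *Phgdh* were *Atpif1* (0.15), *Asna1* (0.21) and *Tubg1* (0.25). Nearest to *Mthfd1* were *Gltscr2* (0.02), *Dohh* (0.09) and *Phf5a* (0.10), genes with control libraries that differ in the same way. Histone and small RNA genes such as *Hist1h2aa* and *Snord104* can share reads with near-identical copies, so their values are uncertain.

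The 9 genes lie on 7 chromosomes, and those that share one, *Asns* and *Mthfd2* on chromosome 6 and *Shmt2* and *Mthfd1l* on chromosome 10, are far apart. Their longest coding sequences in GENCODE had a median of 504 codons and 58.9% G or C at the last base of the codon, against 475 codons and 60.2% over 9780 tested genes with a coding sequence. *Asns* had the lowest share of the 9, 54.5%, at the 34.6 percentile of those genes, and *Shmt2* the highest, 69.6%, at the 80.6 percentile. *Phgdh*, at 65.7%, and *Shmt1*, at 60.5%, lay between them.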

How the data were processed

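RPFs were sequenced from 2 control and 2 *Eef1g*-cKO libraries. The authors deposited FPKM, reads scaled by gene length in kilobases and by the 1000000s of reads on genes, and a signal of normalized counts, for which they had corrected each library by its own size factor. Reads were trimmed, filtered and aligned to the genome per the study's methods; the submitters' processing notes name cutadapt, Bowtie, STAR, mm10 and hg38, while the counter and annotation are not given in the sources used here. Normalized counts were whole multiples of 1 step per library for 100% of values (tolerance 0.01 reads), which gave back the reads, and these rebuilt 100% of the FPKM within a relative tolerance of 0.001. The same table holds the authors' own comparison (mean count, log2 fold change, its standard error, test statistic, p-value and adjusted p-value), which was not used.

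The main comparison was limma 3.58.1 in R 4.3.3 (trended prior variance, no replicate block) on log2(FPKM + 1) for 10475 genes averaging 1 FPKM or more, two-sided, with Benjamini-Hochberg adjustment over all of them. The added 1 FPKM understates the change of low genes. All 9 members passed that filter, and 8 had a mean of at least 5 FPKM. As the mean is over the 4 libraries, *Phgdh* passed both limits only through control, with group means of 10.2 FPKM in control and 0.655 in *Eef1g*-cKO. *Fgf21* and *Slc7a3*, with control means of 0.639 and 0.0835 FPKM, passed only through *Eef1g*-cKO. The calls of these genes are descriptions and no support. edgeR 4.0.16 and DESeq2 1.42.0 on the recovered reads, other pseudocounts, filters and scalings, thinned reads, a replicate block and leaving out each library were alternatives, and the models were tested on simulated data. Poisson and binomial intervals are exact at 95% (scipy 1.17.1), and genes at 0 reads in both *Eef1g*-cKO libraries were set to 3 reads per library only in the second list medians that say so. The members and the gene lists were chosen with earlier results of these data known. Named genes are the members, *Eef1g*, genes of each pathway list, up to 4 per direction and not all of those called, that passed the adjusted p and fold thresholds, the most abundant gene of each marker list, and the 3 genes most like *Asns*, *Phgdh* and *Mthfd1*; others are named with their reason. Coordinates and promoters come from RefSeq on GRCm38.p6, the build called mm10 in the notes. How reads common to paralogs or to overlapping genes were assigned is not visible in the table, and mRNA levels were not analysed here, so RPF abundance is not separated into mRNA and translation.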

Additional observations from a re-analysis of the deposited data

How the results depend on the processing

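*Asns* kept its positive and *Phgdh*, *Psat1*, *Psph*, *Shmt1*, *Shmt2* and *Mthfd1* their negative log2 fold change in each of 14 alternatives. *Asns* ranged from 2.26 to 2.92 over the 14 and was called in 9, and *Shmt1* ranged from −2.45 to −2.06 and was called in 10, but *Phgdh*, called in 5, ranged from −4.72 with a pseudocount of 0.1 to −1.41 with a pseudocount of 5, and *Psph*, called in 4, from −1.44 to −0.75. *Mthfd1l* turned to 0.81 with reads thinned to equal depth and to 0.13 without *Eef1g*-cKO replicate 2, and *Mthfd2* to −0.034 without that library. Without *Eef1g*-cKO replicate 1 these were −0.84 and 0.50. *Mthfd1l* had no value with a minimum mean of 5 FPKM or in edgeR.

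By adjusted p, 301 genes were increased and 521 decreased in limma, and 1 and 3 of the members. These were 29 and 47 genes and 0 and 1 members with a pseudocount of 0.1 (limma, 748 and 1501 genes by unadjusted p), and 0 in all 4 counts with an untrended prior variance (793 and 1811 by unadjusted p) and with thinned reads (723 and 1313). Decreased members numbered 1 without a filter (205 increased and 373 decreased of 11598 genes), with centred libraries and in DESeq2. Increased and decreased genes numbered 521 and 383 with centred libraries and 502 and 451 in DESeq2, which turned the balance toward increases, and 705 and 904 in edgeR. The members' median was −0.79 with centred libraries. Leaving out each library gave 0 to 537 increased and 0 to 1432 decreased genes, 0 to 1 and 0 to 3 members, and a median of −1.14 to −0.78; the lone library of a genotype is then assumed to vary like the pair. The 0 counts came from leaving out a control library. The cause of these moves was not tested.

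The deviations of same-numbered libraries were not correlated (r = −0.00804 across 10475 genes). With 2 libraries per genotype and a median of 5 and 8 reads per gene in the *Eef1g*-cKO libraries, counting error could hide a pairing. The value therefore cannot exclude one. The main comparison used no pairs. With the replicate number as a block, 424 genes were increased and 822 decreased, and 1 and 3 members were called.

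*Phgdh* and *Mthfd1l*, with 3 or fewer reads in each *Eef1g*-cKO library, are measured with large counting error there.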
